A study of Homo sapiens with 54 samples.

Results

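Mitotic cells of RH4, a human cell line of fusion-positive rhabdomyosarcoma (FP-RMS) that carries the PAX3-FOXO1 fusion, were chosen by the counted transcripts of 6 genes from 2 single-cell RNA-seq libraries. A cell entered when it had at least 4000 unique molecular identifiers (UMIs, counted molecules) and 200 genes, under 15% mitochondrial counts, and at least 20 UMIs of PLK1, CCNB1, CDC20, AURKA, CENPE and CENPF summed per 10000 of its UMIs, a quantity called the score here. This gave 2468 mitotic cells of 17659 kept cells and 24931 barcodes. The 1695 kept cells with a score under 2, called low cells here, served as the comparison within each library. Because the 6 genes chose the cells, every difference between mitotic and low cells describes the choice and carries no test.

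The study asked what inhibitors of the histone demethylase KDM3B do in FP-RMS. For the single cells, 1 culture received the solvent DMSO and 1 received the inhibitor P3FI-90 (PFI-90 in the labels) for 16 h, at 1 µM by the study's methods, and each gave 1 droplet library of 3′ ends. Bulk RNA-seq of RH4 after 24 h came from 3 DMSO libraries, 3 libraries with P3FI-90 at 1 µM and 2 with its analog P3FI-63 (PFI-63 in the labels) at 10 µM. RH4 is 1 line, all groups carry its fusion, and the study's methods speak of biological triplicates for RNA-seq without saying how these libraries were cultured, so p-values measure only the spread between them.

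Mitosis is the short step in which a cell that has copied its DNA divides it between daughter cells. Cyclin B with CDK1 drives entry, PLK1 and the Aurora kinases build the spindle, and kinetochore proteins such as CENPE and CENPF join chromosomes to it. The anaphase promoting complex with CDC20 marks cyclin B and other proteins for destruction, so that the sister chromatids can part and mitosis can end. The transcripts of these genes accumulate through G2 and M and are lost in G1, so a score of this kind holds late G2 cells as well as cells in mitosis itself, and RNA counts cannot part the 2 phases.

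The DMSO library held 1625 mitotic cells of 9313 kept, and the P3FI-90 library held 843 of 8346. The low cells numbered 661 with DMSO and 1034 with P3FI-90, which left 7027 and 6469 cells between the limits. The score was continuous through the limit of 20. With DMSO, 386 cells lay from 18 to 20 and 313 from 20 to 22, and with P3FI-90 163 and 135 cells did. The members nearest the limit had scores of 20 with DMSO and 20.0059 with P3FI-90, and the cells just outside had 19.9976 and 19.9969. Among members the median score was 26.4 with DMSO and 28.5 with P3FI-90, and the highest scores were 84.8 and 98.2. By this score the mitotic cells are therefore the upper end of a range. Whether they form a cluster by other genes was not tested.

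**Figure D1:**
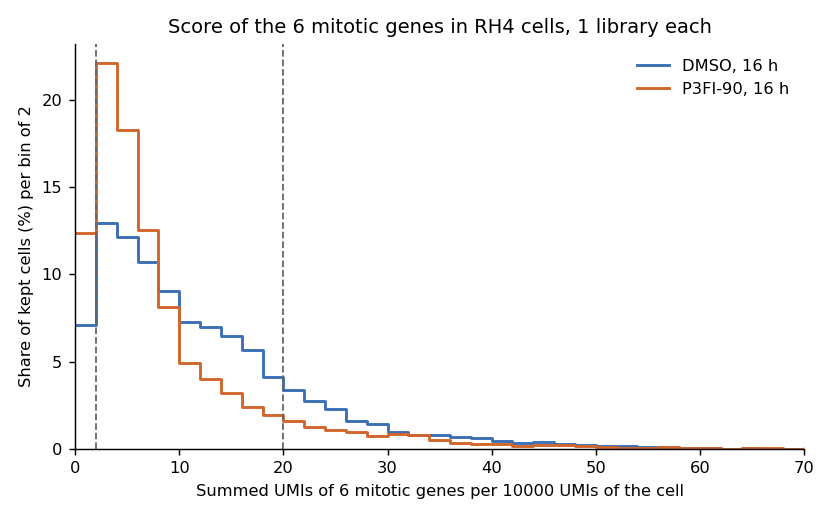
Histogram of the score in all kept cells, with the summed UMIs of the 6 genes per 10000 UMIs on the horizontal axis and the share of kept cells (percent, per bin of 2) on the vertical axis, 1 line per library. The dashed lines mark the limits of 2 and 20, neither line shows a gap at 20, and the few cells of the highest scores lie beyond the axis.

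Depth differed between the cells compared. Mitotic cells had a median of 13950 UMIs with DMSO and 19673 with P3FI-90, against 11848 and 13500.5 in low cells. The median of all kept cells was 12031 and 15462 UMIs. They also had more genes, 3981 and 4619 at the median against 3467 and 3597, and a mitochondrial share of 6.25% and 6.45% against 6.93% and 6.80%. The libraries shared 34 barcodes, of which 1 was mitotic in both and 6 in either. All levels below are therefore CPM, the UMIs of a gene summed over the cells of a group and scaled to a common total, from 25697817 UMIs for the DMSO members and 17675280 for the P3FI-90 members. The part of depth in the results was not tested beyond the values given.

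Most mitotic cells carried the whole set of 6 genes. All 6 were detected in 71.8% of the DMSO members and 83.0% of the P3FI-90 members, and at least 5 in 91.1% and 96.3%. A single gene gave most of the score in 117 DMSO members (7.20%) and 53 P3FI-90 members (6.29%). CENPF, which coats the kinetochore and nuclear matrix, supplied the most, 29.1% of the summed score with DMSO and 31.5% with P3FI-90. CCNB1, the cyclin of mitotic entry, followed with 17.97% and 17.88%, and CDC20, the activator of the anaphase promoting complex, with 17.9% and 17.1%. CENPE, the kinetochore motor, gave 14.1% and 11.4%, AURKA, the spindle pole kinase, 13.1% and 13.4%, and PLK1 7.80% and 8.74%.

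In these 6 genes the distance between the groups was set by the rule and is given as a description. PLK1 stood at 233 CPM in mitotic and 2.93 CPM in low cells with DMSO, and at 271 and 2.57 CPM with P3FI-90. CCNB1 stood at 537 against 19.3 CPM and 555 against 18.9 CPM. CDC20 stood at 537 against 25.8 CPM and at 531 against 23.5 CPM. For AURKA the pairs were 391 and 12.3 CPM, then 416 and 14.2 CPM, and for CENPE 423 and 20.1 CPM, then 355 and 20.6 CPM. CENPF reached 869.6 against 36.3 CPM with DMSO and 977 against 40.4 CPM with P3FI-90.

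A score from 12 other mitotic genes, BUB1, BUB1B, TPX2, UBE2C, HMMR, KIF20A, KIF23, KIF2C, DLGAP5, NUSAP1, TOP2A and TTK, checked the label. Its median was 35.7 per 10000 UMIs in the DMSO members and 42.4 in the P3FI-90 members, against 3.17 and 3.87 in low cells. Of the members, 96.9% and 98.5% lay above the 95th percentile of the low cells of their library. Ranking cells by these 12 genes and taking as many DMSO cells as the rule did gave 67.2% of the same DMSO cells, and the same limit held 81.7% of the P3FI-90 members. By these genes the members differ from the low cells, a comparison that says nothing about cells just under the limit. Which cells are members depends on which genes are counted.

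The line's own markers were present in both mitotic and low cells, though not all at like levels. DES was lower in mitotic cells, at 269 against 389 CPM with DMSO and 273 against 373 CPM with P3FI-90. FGFR4 was higher, at 229 against 197 CPM and 203 against 182 CPM, as was CDH15, at 235 against 188 CPM and 211 against 170 CPM. MYOG stood at 124 against 113 CPM and 103 against 110 CPM. After each cell was thinned to 4000 UMIs, MYOD1, the myogenic transcription factor, had a UMI in 70.8% of mitotic and 68.2% of low cells with DMSO, and in 61.8% and 62.9% with P3FI-90. PLK1 on the same footing was seen in 53.3% and 1.21% with DMSO and in 60.1% and 0.387% with P3FI-90. The myocyte-like markers differed in level. ACTA1, the skeletal actin of mature fibres, was near 0 in the members, at 0.428 CPM with DMSO and 0.226 CPM with P3FI-90. It was also near 0 in low cells, at 0.113 and 0.314 CPM. MYLPF stood at 209 CPM in the members and 315 CPM in low cells with DMSO, and at 186 and 373 CPM with P3FI-90. At 4000 UMIs MYLPF was seen in 25.4% of mitotic and 17.4% of low cells with DMSO, and in 18.9% and 16.8% with P3FI-90.

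Many genes of this program carry 2 short promoter elements, and the promoters of the genes that chose the cells are shown for that reason. AURKA, also one of these genes, had no promoter listed under its symbol and is not shown. The cell cycle genes homology region, to which the DREAM and MuvB complexes bind, was read as TTTGAA or as TTTAAA or as TTCGAA, and the CCAAT box, to which NF-Y binds, as CCAAT. Each run below is the 150 bases before the RefSeq start site (GRCh38.p14), 5′ to 3′ on the gene's strand, with every match on either strand in capitals. CCNB1 is at chr5:69167000-69167149 (plus strand), CDC20 at chr1:43358831-43358980 (plus), PLK1 at chr16:23678739-23678888 (plus), CENPE at chr4:103198344-103198493 (minus) and CENPF at chr1:214603045-214603194 (plus). KIF20A, the gene outside the rule with the largest fold of mitotic over low cells by the smaller of its folds in the 2 libraries, is at chr5:138178962-138179111 (plus).
CCNB1: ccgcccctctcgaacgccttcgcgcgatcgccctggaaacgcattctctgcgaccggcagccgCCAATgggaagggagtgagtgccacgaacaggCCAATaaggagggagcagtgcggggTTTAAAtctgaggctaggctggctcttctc
CDC20: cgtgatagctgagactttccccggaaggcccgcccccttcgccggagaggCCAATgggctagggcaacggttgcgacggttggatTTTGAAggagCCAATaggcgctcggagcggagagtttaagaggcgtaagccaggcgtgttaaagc
PLK1: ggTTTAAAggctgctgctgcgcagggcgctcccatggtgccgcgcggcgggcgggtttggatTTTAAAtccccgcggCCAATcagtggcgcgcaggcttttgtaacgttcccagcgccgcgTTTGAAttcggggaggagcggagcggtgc
CENPE: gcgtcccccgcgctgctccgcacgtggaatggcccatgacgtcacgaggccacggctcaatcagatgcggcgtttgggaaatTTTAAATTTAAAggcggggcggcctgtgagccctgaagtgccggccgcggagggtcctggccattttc
CENPF: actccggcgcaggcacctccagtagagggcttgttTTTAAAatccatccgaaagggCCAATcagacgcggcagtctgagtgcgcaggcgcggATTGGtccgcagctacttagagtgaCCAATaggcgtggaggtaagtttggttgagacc
KIF20A: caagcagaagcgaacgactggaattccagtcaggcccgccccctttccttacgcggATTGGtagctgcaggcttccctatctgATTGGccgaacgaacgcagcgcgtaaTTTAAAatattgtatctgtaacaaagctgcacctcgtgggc

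CCNB1 and CDC20 each held 1 homology element and 2 CCAAT boxes, and PLK1 held 3 homology elements and 1 CCAAT box. CENPE held 2 TTTAAA matches and no CCAAT, CENPF 1 and 3 CCAAT boxes, and KIF20A 1 and 2. TTTAAA and TTCGAA read the same on both strands. Of the 142 genes high in mitotic cells (defined below), 112 matched a RefSeq promoter by symbol, and 49.1% of these held at least 1 of the 3 homology elements against 7.70% of the 4613 matched genes tested in single cells and 13.3% of all 27305 promoters. TTTGAA was in 35.7% of the 112, TTTAAA in 14.3% and TTCGAA in 3.57%, against 4.10%, 3.16% and 0.737% of the genes tested. CCAAT was in 65.2% against 29.2%, and both kinds stood together in 42.0% against 3.19%. Of the 28 genes low in mitotic cells, 15 matched, with a homology element in 20% and CCAAT in 40%. These are letter matches and not bound sites.

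Beside the 6 genes, mitotic cells held a broad set of division genes. Of 5884 genes with at least 20 CPM in the higher group of each library, 142 (2.41%) were at least 2-fold higher in mitotic than low cells in both libraries, 67 of them at least 4-fold, and 28 (0.476%) were at least 2-fold lower. With the 6 rule genes set aside, 136 remained among the higher genes. Over all genes tested the median log2 fold was 0.09 with DMSO and 0.11 with P3FI-90. The contrast is the one that chose the cells, so nothing is read from these shares.

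The 15 highest of the 136, by the smaller of their folds in the 2 libraries, were KIF20A, PIF1, FAM83D, DLGAP5, KIF14, PSRC1, CDCA3, CENPA, TOP2A, HMMR, UBE2C, SAPCD2, DEPDC1, MKI67 and CDCA8. KIF20A, a kinesin of the central spindle, was 21.7-fold higher with DMSO (95% counting interval 13.5 to 37.4) and 28.1-fold higher with P3FI-90 (18.5 to 44.6). PIF1, a DNA helicase, was 16.0-fold (12.2 to 21.5) and 27.4-fold higher (21.3 to 36.0). UBE2C, the ubiquitin-conjugating enzyme of the anaphase promoting complex, rested on far more molecules, 1481 against 139 CPM with DMSO and 1915 against 188 CPM with P3FI-90. CENPA, the histone H3 variant of centromeres, stood at 87.4 against 7.77 CPM and 109 against 5.96 CPM.

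**Figure D2:**
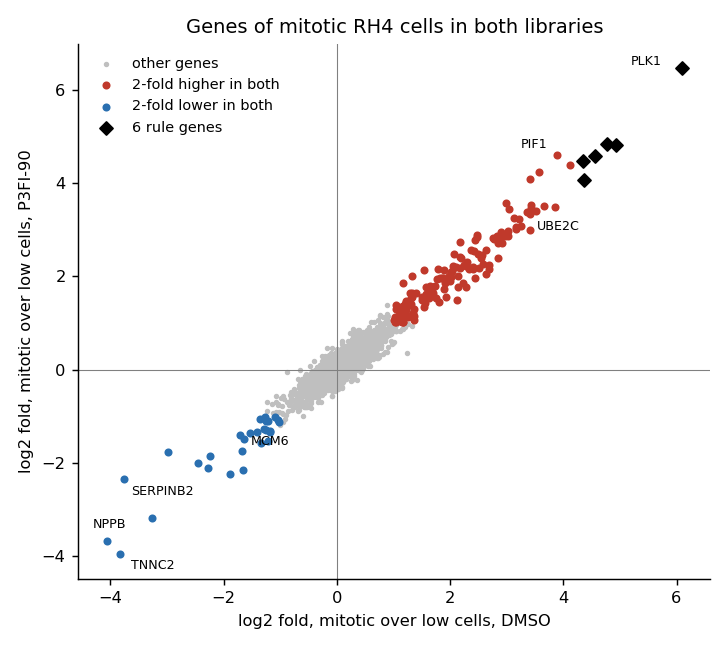
Log2 fold of mitotic over low cells for the genes tested, with the DMSO library on the horizontal axis and the P3FI-90 library on the vertical axis, 1 point per gene. The 142 genes higher in both libraries lie at the upper right, the 6 rule genes drawn as diamonds with PLK1 farthest out, and the 28 lower genes lie at the lower left with TNNC2 and NPPB farthest out.

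Genes of mitotic entry and its kinases were mostly in the higher set. Of 10 cyclins, CDK1 partners and CDC25 phosphatases tested beside CCNB1, 7 were at least 2-fold higher and none lower, with a median log2 fold of 2.03 with DMSO and 2.14 with P3FI-90. CDK1, the kinase of mitotic entry, stood at 160 against 35.2 CPM and 212 against 46.7 CPM. CCNF, an F-box cyclin, had the largest log2 fold of the group, 3.03 and 3.45. PKMYT1, an inhibitory kinase of CDK1, had log2 folds of -0.37 and -0.40 and was not called. Of 9 mitotic kinases 6 were higher, among them NEK2, a centrosome kinase, with log2 folds of 3.0 and 3.57, and BUB1 of the spindle checkpoint with 2.92 and 2.72. MASTL, which restrains the phosphatase PP2A in mitosis, had log2 folds of 0.02 and 0.12.

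The genes of chromosome segregation and the spindle were the most uniform. All 6 genes of the chromosomal passenger complex and the shugoshins were higher, with CDCA8 (Borealin) at log2 folds of 3.16 and 3.07 and INCENP at 3.02 and 2.87. So were all 12 mitotic kinesins, from KIF22 with 1.25 and 1.12 to KIF20A with 4.12 and 4.40. Among spindle and centrosome factors 19 of 22 were higher, TPX2, which targets AURKA to the spindle, at 649 against 82.5 CPM with DMSO. The 3 others were CCDC34, HAUS1 and NUMA1, named after their values were seen. All 10 cytokinesis genes were higher, with PRC1, which bundles the central spindle, at log2 folds of 2.77 and 2.79.

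Kinetochore genes were divided. Of 29 kinetochore and checkpoint genes 11 were at least 2-fold higher, with a median log2 fold of 0.69 and 0.70. CENPA, NDC80 and HJURP, the chaperone that loads CENPA, had log2 folds of 3.41, 2.83 and 2.42 with DMSO. SKA2 of the outer kinetochore stood at 0.69 and 0.70, under the limit. Chromosome structure was divided likewise, with 6 of 10 genes higher. TOP2A, which untangles sister chromatids, stood at 782 against 67.8 CPM with DMSO and 841 against 79.4 CPM with P3FI-90, and MKI67, which coats mitotic chromosomes, at 587 against 61.0 CPM and 443 against 51.8 CPM. NCAPH2 of condensin II had log2 folds of 0.13 and 0.12.

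Around the anaphase promoting complex the higher genes were mostly its enzymes and substrates. Of 13 tested, 6 were higher, led by UBE2C, ESPL1 (separase, which cuts cohesin) with log2 folds of 2.41 and 2.15, and PTTG1 (securin) with 2.06 and 2.49. UBE2S, the chain-extending enzyme, stood at 1763 against 545 CPM with DMSO. CDC27 was the only core subunit called, named after its values were seen, with 1.08 and 1.06. Of 12 nuclear envelope genes 3 were higher, LBR, LMNB1 and TMPO, the last with log2 folds of 1.01 and 1.06. Among 9 tubulins TUBA1C and TUBB4B were higher, with log2 folds of 1.32 and 1.41 and of 1.21 and 1.41. Of 14 chromatin genes HMGB2, H2AFX and HMGB3 were higher, HMGB2 with 2.14 and 2.01.

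Of the transcription factors tied to these genes, FOXM1 and E2F1 stood on opposite sides. FOXM1, which activates G2 and M genes, was at 68.1 against 23.4 CPM in both libraries. E2F1, which activates genes of S phase entry, was at 71.6 against 162 CPM with DMSO and 61.1 against 156 CPM with P3FI-90. MYBL2, which like FOXM1 binds the MuvB complex, had log2 folds of 0.21 and -0.04. Among 9 G1 cyclins and CDK inhibitors only CDKN3, a phosphatase of CDKs, was called, with log2 folds of 2.17 and 2.42.

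Among the 28 lower genes, those of DNA replication stood out as a group. Of 33 replication genes tested, 7 were at least 2-fold lower and none higher, and the list's median log2 fold was -0.55 with DMSO and -0.69 with P3FI-90. MCM6, of the replicative helicase, stood at 55.6 against 179 CPM and 41.9 against 141 CPM, and MCM5 at 23.6 against 74.3 CPM and 19.9 against 57.2 CPM. In cells thinned to 4000 UMIs, MCM5 was seen in 9.66% of mitotic and 23.9% of low cells with DMSO, and in 7.35% and 18.2% with P3FI-90. TYMS, a thymidylate enzyme of S phase, had log2 folds of 0.40 and 0.10 and was not called. None of 5 histone genes passed the limit.

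Others of the 28 were carried by few of the low cells. TNNC2, a fast troponin, stood at 6.11 against 93.2 CPM with DMSO and 3.73 against 65.6 CPM with P3FI-90, but the 1% of low cells with the most of it held 94.1% and 88.7% of its UMIs. For TNNC1 that share was 91.3% and 81.0%, for NPPB, a natriuretic peptide, 94.9% and 80.9%, and for SERPINB2, a protease inhibitor, 80.9% and 66.7%. MCM6 was spread out, with 4.91% and 5.67% in the highest 1%. Counted by cells, the TNNC2 difference was not seen with DMSO, 1.97% of mitotic against 2.12% of low cells at 4000 UMIs (exact Clopper-Pearson 95% intervals 1.35 to 2.77 and 1.16 to 3.53), and was 1.78% against 3.87% with P3FI-90 (1.00 to 2.92 and 2.78 to 5.23). Of 16 contractile genes tested these troponins alone were called, and the summed level of the list was 9605 CPM in mitotic and 9845 CPM in low cells with DMSO and 8175 against 8910 CPM with P3FI-90. Of 7 genes of a mesenchymal list 4 were lower, CCDC80, ELN, FN1 and TAGLN, with FN1 (fibronectin) at 333 against 707 CPM with DMSO and 330 against 665 CPM with P3FI-90. The list summed to 3042 against 4063 CPM with DMSO and 3299 against 4109 CPM with P3FI-90. Myogenic regulators (7 tested) and PAX3-FOXO1 target genes (18 tested) had no call either way, where 2.41% of all genes were higher and 0.476% lower.

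The levels of these genes followed the score in different ways. UBE2C was higher in each band than in the one before it, from 139 CPM below 2 to 263, 457, 735, 1207 and 1929 CPM at 30 and above with DMSO, and from 188 to 2365 CPM with P3FI-90. HIST1H4C, a histone gene of S phase, was highest at scores of 5 to 10, at 2742 CPM with DMSO and 2731 CPM with P3FI-90, and lower on both sides, 937 and 1025 CPM below 2. PCNA, the replication clamp, was highest from 2 to 5, at 177 and 161 CPM, and lowest at 30 and above, at 58.0 and 45.5 CPM. E2F1 went from 162 CPM below 2 through 215 CPM at 2 to 5 to 46.5 CPM at the top with DMSO. MYOD1 stayed between 313 and 343 CPM with DMSO and between 237 and 274 CPM with P3FI-90. PCNA was picked for these bands after its values were seen.

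**Figure D3:**
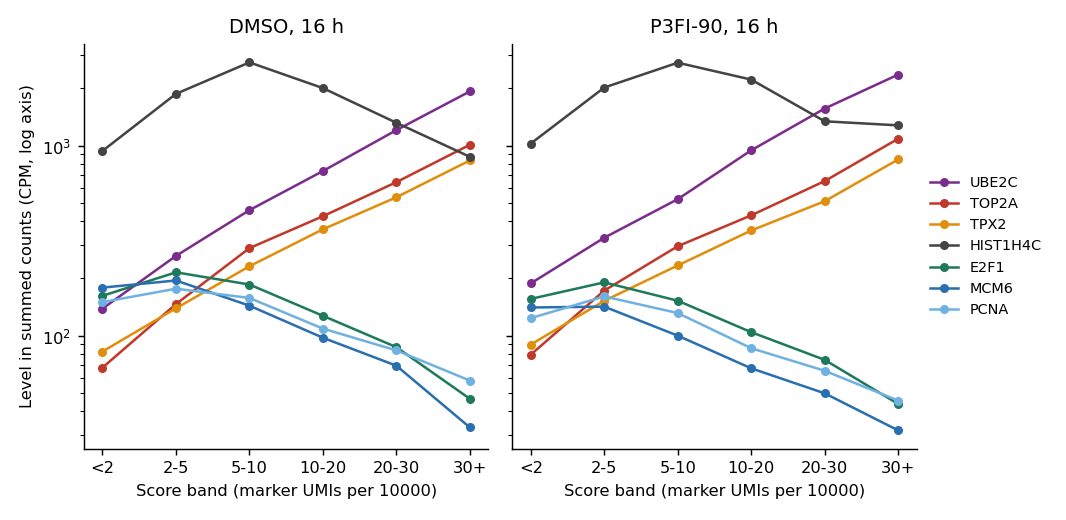
Levels of selected genes (CPM of summed counts, logarithmic axis) in 6 bands of the score, DMSO on the left and P3FI-90 on the right, 1 line per gene. UBE2C climbs to 1929 CPM with DMSO and 2365 CPM with P3FI-90, while the lines of MCM6 and PCNA end lower at the top than in the lower bands.

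Within the members the same trend held on a smaller scale. Members with a score of 30 and above, 566 with DMSO and 374 with P3FI-90, were set against the 1059 and 469 with a score of 20 to 30. All 136 genes high in mitotic cells beside the rule genes were higher at 30 and above in both libraries, with median log2 folds of 0.48 and 0.53, and none of 5895 genes tested passed 2-fold in both. MKI67 stood at 477 and 767 CPM in the 2 DMSO bands and at 343 and 573 CPM with P3FI-90. The bands were cut from the score, and this too is a description.

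P3FI-90 went with fewer mitotic cells. The members made up 17.4% of kept cells with DMSO (exact 95% interval 16.7 to 18.2) and 10.1% with P3FI-90 (9.46 to 10.8), a ratio of 0.579 (0.532 to 0.629). The low cells went the other way, from 7.10% (6.58 to 7.64) to 12.4% (11.7 to 13.1). With 1 library per treatment there is no replicate error and no test, and these intervals cover counting error only. The lower share was found in every band of depth. Among cells of 4000 to 8000 UMIs it was 15.7% with DMSO and 9.71% with P3FI-90, from 8000 to 12000 UMIs 12.7% and 4.49%, from 12000 to 16000 UMIs 17.6% and 7.03%, from 16000 to 24000 UMIs 21.1% and 11.99%, and above that 23.6% and 16.2%. Cells under 4000 UMIs, which the rule leaves out, reached a score of 20 in 688 of 3229 cases (21.3%) with DMSO and 323 of 2110 (15.3%) with P3FI-90. The ratio depended on where the limit lay. It was 0.527 at a score of 15, 0.737 (0.645 to 0.842) at 30, and 0.720 (0.666 to 0.779) by the 12 other mitotic genes.

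Inside mitotic cells the division genes stood at similar levels in both libraries. None of the 142 genes high in mitotic cells passed 2-fold between the libraries within the members. Few genes of any kind did, as 0.212% of all genes tested in mitotic cells were higher and 0.0326% lower. Over the 136 beside the rule genes the median log2 fold of P3FI-90 over DMSO was 0.00, from -0.76 to 0.76, with 130 genes within 0.5 and 69 above 0. The median over all 6136 genes tested in mitotic cells was -0.07. Over all kept cells, where the share of members also counts, the median of the 142 genes was -0.23 and 134 of them were lower, against 0.01 and 69 lower within mitotic cells and -0.06 within low cells. Of all 6136 genes, 4119 were lower over all kept cells and 3974 within mitotic cells. Among the rule genes CENPE was lowest with P3FI-90, at 355 against 423 CPM, and PLK1 was at 271 against 233 CPM. MKI67 was at 443 against 587 CPM, a log2 fold of -0.40, and UBE2C at 1915 against 1481 CPM, a log2 fold of 0.37. The rule fixes the lower end of the 6 genes in both libraries, so levels of genes that go with them within members are tied to it.

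The genes that differed most inside the members were stress genes. Of 6136 genes, 13 (0.212%) were at least 2-fold higher with P3FI-90 in mitotic cells, and the 10 largest were DDIT3, TRIB3, GDF15, ASNS, DDIT4, SESN2, CEBPB, JDP2, HERPUD1 and CEBPG. TUBE1, PSAT1 and PPP1R15A completed the 13 and were named after their values were seen. The integrated stress response is the program in which phosphorylated eIF2 slows translation and ATF4 turns on genes of amino acid supply and of cell death. Of 22 genes of that list tested 9 passed 2-fold, 21 were above 0, and the list's median log2 fold was 0.81 in mitotic and 0.75 in low cells. The fold was larger in mitotic than in low cells for 17 of the 22, a difference that was not tested. The summed level of the list was 1389 CPM in mitotic and 1631 CPM in low cells with DMSO. With P3FI-90 it was 2304 CPM in mitotic and 2340 CPM in low cells.

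DDIT3 (CHOP), a transcription factor of prolonged stress, had the largest fold, from 20 CPM (514 UMIs) to 123 CPM (2167 UMIs) in mitotic cells. That was 6.13-fold (95% counting interval 5.57 to 6.76), beside 4.46-fold (3.795 to 5.28) in low cells. After thinning to 4000 UMIs it was seen in 8.06% of the DMSO members and 33.3% of the P3FI-90 members, and in 6.35% and 24.3% of low cells. Along the score its level with P3FI-90 went from 83.5 CPM below 2 to 129 CPM at 30 and above, while with DMSO it lay between 15.3 and 21.1 CPM.

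TRIB3, a pseudokinase induced by ATF4 and DDIT3, went from 9.92 to 44.6 CPM in mitotic and from 17.6 to 34.5 CPM in low cells. That was 4.49-fold (3.896 to 5.195) in mitotic and 1.96-fold (1.64 to 2.36) in low cells, from a lower DMSO level in mitotic cells. These intervals cover counting error only, and the difference between the cell groups was not tested. At 4000 UMIs TRIB3 was seen in 13.1% of mitotic and 12.7% of low cells with P3FI-90, against 3.51% and 5.30% with DMSO. GDF15, a secreted stress hormone, was higher by 3.97-fold (3.54 to 4.46) in mitotic and 2.70-fold (2.31 to 3.17) in low cells. ASNS, which makes asparagine, was higher by 3.49-fold (3.07 to 3.98) and 2.41-fold (2.04 to 2.86). With P3FI-90 GDF15 reached 62.3 CPM in mitotic and 59.0 CPM in low cells, from 15.7 and 21.9 CPM with DMSO. ASNS reached 45.0 and 47.2 CPM, from 12.9 and 19.6 CPM. DDIT4, an inhibitor of mTORC1, was alike in both, 2.98-fold (2.53 to 3.51) and 2.98-fold (2.38 to 3.76), as was SESN2, another brake on mTORC1, with 2.96-fold (2.46 to 3.56) and 2.52-fold (1.96 to 3.29).

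Only MT-ND6 and CCDC140 were at least 2-fold lower with P3FI-90 in mitotic cells (0.0326% of genes). MT-ND6, a mitochondrial subunit of complex I, went from 81.3 to 32.8 CPM, a log2 fold of -1.30, and -1.17 in low cells. CCDC140 went from 64.2 to 30.9 CPM, a log2 fold of -1.04, and -0.87 in low cells. In low cells 8 of 5883 genes (0.136%) were higher and 5 (0.085%) lower, of which 7 and 1 were also called in mitotic cells. No heat shock chaperone (10 tested), p53 target (8 tested) or apoptosis regulator (10 tested) passed 2-fold in the members. Over all genes 0.212% were higher and 0.0326% lower there, so nothing is read from such counts in lists this short. CCND1, the G1 cyclin, stood at 58.6 against 99.3 CPM in mitotic cells, a log2 fold of -0.76, and at -0.77 in low cells. The lysine demethylases, 9 tested, had no call, from which at those shares nothing is read either. KDM3B, the drug's named target, stood at 46.0 against 50.3 CPM.

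**Figure D4:**
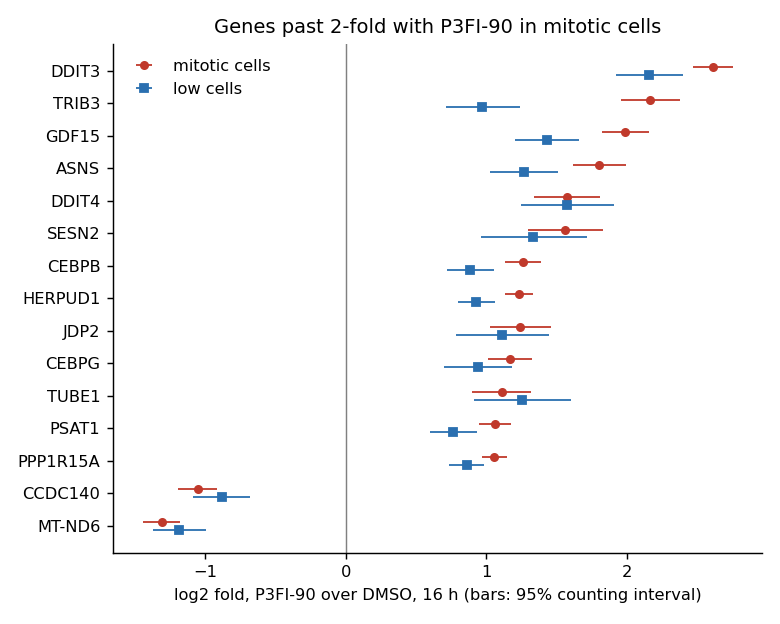
Log2 fold of P3FI-90 over DMSO at 16 h for the genes past 2-fold in mitotic cells, with mitotic and low cells as separate points per gene and bars for the 95% counting interval, computed from the CPM ratio with nothing added. DDIT3 is farthest right, 6.13-fold higher in mitotic and 4.46-fold in low cells, and MT-ND6 and CCDC140 are the only genes left of 0.

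Bulk RNA-seq measured these genes in libraries the rule did not use. In bulk, fewer cells of a type and less RNA per cell cannot be told apart. Values are TPM, transcript levels scaled to a common total per library, and folds are on the log2(TPM + 1) scale, tested by limma with Benjamini-Hochberg adjustment over 12332 genes. The drugs share the DMSO libraries and differ in dose, so they are set side by side and not compared.

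CCNB1 stood at 265, 268 and 249 TPM with DMSO, at 211, 177 and 159 TPM with P3FI-90, and at 153 and 89.2 TPM with P3FI-63. Neither drug group overlapped the DMSO libraries. How many of all genes separate in this way was not counted, so nothing is read from it here or below. The log2 fold was -0.52 ± 0.23 (SE) with P3FI-90, adjusted p = 1 by limma, and -1.15 ± 0.26 with P3FI-63, adjusted p = 0.0526, or 0.0248 with the replicate number as a block. PLK1 read 76.7, 84.9 and 90.7 TPM with DMSO, 62.4, 68.3 and 76.4 TPM with P3FI-90, and 65.0 and 34.9 TPM with P3FI-63, so that the highest drug library was just under the lowest DMSO library. CDC20 went from 282, 259 and 314 TPM to 236, 215 and 244 TPM with P3FI-90 and 171 and 186 TPM with P3FI-63, and AURKA from 166, 172 and 168.2 TPM to 151, 132 and 101 TPM and to 110 and 80.6 TPM. These groups did not overlap either.

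CENPE and CENPF varied more between replicates than between groups. CENPE stood at 15.5, 73.2 and 10.5 TPM with DMSO, at 8.97, 40.6 and 5.65 TPM with P3FI-90 and at 29.0 and 1.63 TPM with P3FI-63, with replicate 3 high in every group. CENPF read 36.2, 94.2 and 26.96 TPM, then 21.5, 72.1 and 23.6 TPM, then 82.0 and 4.07 TPM. The groups overlap in both genes. Taken by replicate number, each drug library was lower than its DMSO library in both. How many of all genes do so was not counted. None of the 6 rule genes passed the test with either drug, and 1 and 4 of them had an unadjusted p under 0.05. With the replicate block 4 of the 6 were lower with P3FI-63, AURKA (adjusted p = 0.0474 by limma), CCNB1, CDC20 (0.0319) and CENPE (0.0161), where 8.31% of all genes were lower. None of these 4 calls was left when the P3FI-90 library whose label holds no replicate number was left out of the blocked fit. DMSO replicate 1 was then alone in its block and had no weight in the folds either.

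**Figure D5:**
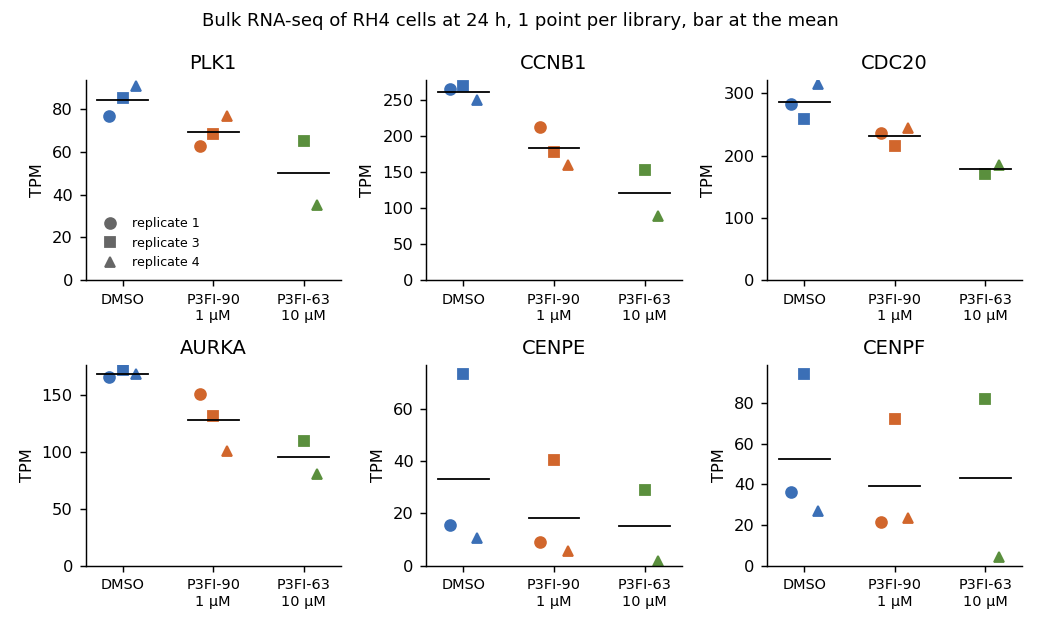
Levels of the 6 rule genes in bulk RNA-seq at 24 h (TPM, linear axis), 1 panel per gene and 1 point per library for DMSO, P3FI-90 and P3FI-63, with a bar at the group's mean. CCNB1, CDC20 and AURKA separate DMSO from both drugs, while replicate 3 stands apart in CENPE and CENPF.

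Of the 142 genes high in mitotic cells, 139 were tested in bulk. With P3FI-90 none was called, where 1 gene of all tested was higher (0.00811%, TRIB3) and none lower (0%). By the unadjusted p of limma 16 of the 139 were under 0.05, as were 244 of all 12332 genes, and 131 had a negative fold, as did 7650 of all genes. Their median log2 fold was -0.39, against -0.08 over all genes tested. A negative median was not particular to them, as the 43 replication genes tested in bulk had -0.48, with 43 negative. With the block the count of calls among the 139 was again 0, where 0.0243% of all genes were higher and 0% lower. In that fit 45 of the 139 and 998 of all 12332 genes had an unadjusted p of limma under 0.05.

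With P3FI-63 the median of the 139 was -0.89, against -0.35 over all genes, and 130 were negative, as were 9017 of all 12332 genes. The replication genes had a median of -0.95, with 41 of 43 negative. Of the 139, 4 were called lower and 1 higher, where 1.21% of all genes were lower and 1.16% higher. They were named after their values were seen. CCNF went from 35.8, 40.6 and 42.0 TPM to 14.1 and 3.16 TPM (log2 fold -2.35 ± 0.48 SE, limma adjusted p = 0.0400). H2AFX, the histone variant of DNA damage foci, went from 144, 161 and 210 TPM to 64.2 and 86.3 TPM, HMGB3 from 106, 134 and 105 TPM to 45.2 and 54.3 TPM, and LUZP2 from 31.3, 35.1 and 15.5 TPM to 1.80 and 2.65 TPM. HSPA1A, an inducible chaperone whose reads may be shared with its near-identical copy HSPA1B, rose from 13.1, 17.6 and 18.6 TPM to 398 and 2864 TPM. UBE2C went the other way from the list, 568, 625 and 755 TPM with DMSO and 616 and 1019 TPM with P3FI-63, and was not called.

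The number of these calls rested on few libraries. With the block it was 52 lower and 1 higher, where 8.31% of all genes were lower and 2.70% higher. Leaving out the P3FI-90 library with no number in its label left DMSO replicate 1 alone in its block and without weight in the fit. The 52 then fell to 0. Without the block it was 96 when P3FI-63 replicate 3 was left out and 0 without DMSO replicate 1 or replicate 3, while the median stayed negative in each case. Of the 28 genes low in mitotic cells, 2, CTGF among them, were called higher and 1, MCM6, lower with P3FI-63. Over all genes 1.16% were higher and 1.21% lower with that drug. With P3FI-90 none of the 28 was called, where 0.00811% of all genes were higher and 0% lower. By limma 6 of them had an unadjusted p under 0.05, as did 244 of all 12332 genes. With the block 2 of the 28 were higher and 5 lower with P3FI-63, where 2.70% of all genes were higher and 8.31% lower.

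The top stress genes of the mitotic cells were measured in bulk as well. DDIT3 stood at 16.0, 52.9 and 20.2 TPM with DMSO, 132, 375 and 218 TPM with P3FI-90 and 484 and 557 TPM with P3FI-63. No drug library overlapped the DMSO libraries, a separation that was again not counted over all genes. With P3FI-90 the log2 fold was 3.04 ± 0.47 (SE), adjusted p = 0.426 by limma and 0.0435 with the block, and with P3FI-63 it was 4.27 ± 0.52, adjusted p = 0.00552. TRIB3 rose from 22.1, 25.7 and 25.5 TPM to 129, 242 and 279 TPM with P3FI-90 (3.03 ± 0.29, limma adjusted p = 0.0183) and to 209 and 216 TPM with P3FI-63 (3.07 ± 0.32, adjusted p = 0.00287).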

How the data were processed

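Of the 54 samples of the series, 10 were used. The single-cell matrices deposited by the authors hold counts of UMIs, made with Cell Ranger 6.1.2 (submitters' processing notes) against hg19. Doublet removal before clustering is stated for the study's analysis but not for these matrices, and doublets were kept here. Rows with the same symbol (186) were summed. Members, scores and folds were computed with Python 3.11.15, numpy 2.4.6 and scipy 1.17.1. A call is a 2-fold difference of CPM with at least 20 CPM in the higher group, and 0.5 CPM was added before log2. Intervals are exact, at 95%, and cover counting error only. Thinning drew 4000 UMIs per cell.

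Bulk values are TPM deposited by the authors, from STAR and RSEM on hg19, with no read depth given. Genes averaging at least 1 TPM entered, as log2(TPM + 1), limma 3.58.1 (R 4.3.3) with a mean-variance trend, all 8 libraries in 1 fit. The scripts were checked on simulated data. Deviations from the group means of libraries with the same replicate number correlated (DMSO with P3FI-90 0.571, 0.575 and 0.643; DMSO with P3FI-63 0.312 and 0.388), so the numbers were taken to pair the libraries. The P3FI-90 library called replicate 1 has no number in its label, and its dose of 1 µM comes from the study's supplement.

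Named genes were the 6 rule genes, the 15 highest and 10 lowest of mitotic over low cells, the 10 largest each way with P3FI-90 in members, and up to 3 members of each of 28 lists by level or by fold (all in lists of 12 or fewer). Others are marked where named. Of the genes so chosen 1 is not reported here. Members and lists were chosen with earlier results of these data known. Promoters were the RefSeq GRCh38.p14 start listed for a symbol, and the 150 bases before it were searched on both strands. Alternatives were other limits of score, depth and level, thinning, median-ratio scaling, other pseudocounts and filters, the replicate block and leaving out each library.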

Additional observations from a re-analysis of the deposited data

How the results depend on the processing

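The share ratio of mitotic cells stayed below 1 under every alternative run. It was 0.560 to 0.582 with other minimum depths, with cells thinned, and with the 5% of cells of highest Scrublet score left out (chosen after seeing the data), and moved to 0.527 at a limit of 15, 0.737 at a limit of 30 and 0.720 with the 12 other genes. Scrublet itself called 0 cells in both libraries, so the planned fits without called doublets were not run. The count of genes higher in mitotic cells stayed within 105 to 175 of the 142. The 28 lower genes became 15 against cells under 5 per 10000, 12 at 50 CPM, 104 with no level filter and 12 with cells thinned. The 13 genes higher with P3FI-90 in members became 7 at 50 CPM and 30 with no filter. The 2 lower genes became 56 with no filter, 14 with cells thinned, 1 with median-ratio scaling and 6 in members of 8000 to 20000 UMIs (chosen after seeing the data). The cause was not tested, beyond that filters change which genes are tested.

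In bulk, no alternative run gave a call for P3FI-90 among the genes high in mitotic cells. The 4 lower calls with P3FI-63 became 2 with a pseudocount of 0.1 TPM, 7 with median-ratio rescaling and 0 to 96 without 1 library, and the 1 higher call 1 to 3. The fit with the replicate block gave 52 lower calls, and 0 when the library with no number in its label was left out as well (chosen after seeing the data). In that last fit DMSO replicate 1, alone in its block, had no weight either. Without 1 library the medians were -0.25 to -0.48 for P3FI-90 and -0.37 to -1.41 for P3FI-63. Where P3FI-63 keeps 1 library, that library is assumed to vary like the other groups. Of the results named in the text, the block changed no other call than those given beside them. Depth limits genes under about 20 CPM, and with 1 single-cell library per treatment no difference between treatments has a replicate error.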
